A study of Mus musculus with 16 samples.

Results

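The cytosolic ribosomal protein genes encode the protein parts of the ribosomes that translate messenger RNA outside the mitochondria. They were followed here in microglia, the resident macrophages of the brain, from 16 mice of an amyloid study. Members were taken from the rows of the gene table whose symbol has the form Rpl or Rps plus a number, with an optional final a, l, x or y, or is Rplp0, Rplp1 or Rplp2. They were 79 of 20267 genes, of which 48 belong to the large and 31 to the small subunit. Of these, 78 reached a CPM of 1 in at least 4 libraries and were tested, CPM being the count of a gene's reads scaled to a library total that is the same for all libraries. The exception was Rpl39l, a paralog of Rpl39 known in mouse mainly from the testis, which was at 0 in 5 libraries and no higher than 0.544 CPM in any. By annotation 3 members (Rpl6l, Rpl32l and Rps4l) are processed pseudogenes, so not every member is known to make a ribosomal protein.

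The 4 groups held 4 mice each: AD p38KO, AD p38+/+, WT p38KO and WT p38+/+. AD mice carried the APPswe/PS1dE9 transgenes and WT mice did not, and all mice were p38fl/fl on the C57BL/6J background. The KO groups carried Cx3cr1-creERT2, a tamoxifen-activated Cre placed in the microglial gene Cx3cr1, so that they also had a single working copy of Cx3cr1, and the p38+/+ groups had no Cre. All 16 mice, controls included, ate a 400 ppm tamoxifen diet for 4 weeks from month 5 and were collected at month 11, when CD11b+/P2ry12+ cells were sorted, about 10000 cells a mouse. The groups held 1 female and 3 males (AD p38KO), 1 and 3 (AD p38+/+), 2 and 2 (WT p38KO) and 1 and 3 (WT p38+/+). The study chose these mice for the quality of their RNA, and each library came from a separate mouse. In such bulk samples, fewer cells of a type and less RNA per cell cannot be told apart.

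A ribosome joins a small subunit, which reads the messenger RNA, to a large subunit, which forms the peptide bonds. The ribosomal proteins accumulate in matched amounts, because unassembled ones are degraded. Their messenger RNAs are known for a run of pyrimidines (C or T in the DNA) at the transcription start, the 5′ terminal oligopyrimidine or TOP motif, through which the kinase mTOR controls their translation together. The mammalian genome also carries many processed copies of these genes, most of them pseudogenes.

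The libraries fitted their labels. Mapk14-202, a transcript of the deleted gene Mapk14 (which encodes p38α), was at 0.0574 to 0.248 CPM in AD p38KO mice and 58.5 to 71.0 CPM in AD p38+/+ mice, and at 0.0589 to 0.214 CPM in WT p38KO mice and 47.1 to 82.6 CPM in WT p38+/+ mice. Mapk14-203 averaged 143 CPM in AD p38KO and 74.5 CPM in AD p38+/+ mice, and 149 CPM in WT p38KO and 88.2 CPM in WT p38+/+ mice, so the gene-level sum of Mapk14 is no check of the deletion. Microglial markers summed to between 73325 and 87022 CPM in every library and neuronal markers to at most 24.1 CPM. The value of a single read in the files put the depth at about 12300000 to 16400000 assigned reads a library, so 3 reads are about 0.183 to 0.244 CPM. Fewer genes were detected in AD p38KO libraries (15485 to 16852) than in AD p38+/+ libraries (17230 to 18054). Red blood cell markers reached 467 CPM in AD p38KO mouse 4 and 364 CPM in WT p38KO mouse 3, and were at most 40.6 CPM in the other libraries. The part of these differences in the results below was not tested.

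The annotated start sites show the shared sequence feature of this family in some members and not in others. RefSeq promoter entries (GRCm38.p6) were matched for 57 members. Each of the next lines gives 30 bases on the strand of the gene, 15 before the annotated start and 15 from it on, with the run of C and T through the start in capitals.
Rpl34 (chr3:130730323-130730352, minus strand): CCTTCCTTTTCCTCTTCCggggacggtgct
Rpl35 (chr2:39005117-39005146, minus strand): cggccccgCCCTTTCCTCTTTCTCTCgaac
Rplp2 (chr7:141447636-141447665, plus strand): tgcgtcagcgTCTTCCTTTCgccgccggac
Rps6 (chr4:86857353-86857382, minus strand): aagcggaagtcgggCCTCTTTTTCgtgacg
Rpl41 (chr10:128549154-128549183, minus strand): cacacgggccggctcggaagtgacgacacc
Rps15 (chr10:80292416-80292445, plus strand): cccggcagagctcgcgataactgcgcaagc
The upper lines are examples of long runs and the last lines, Rpl41 and Rps15, are the members called below, in which the annotated start lies in no run. A run of at least 5 letters C or T through the start was present in 20 of 57 members (35.1%), against 3171 of 26968 other genes (11.8%). Annotated starts can lie away from the start used in these cells, so no run says only that the letters are not at that base.

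Ribosomal protein reads made up more of the libraries of AD mice than of WT mice, with p38 present or deleted. The 79 genes together took 4626, 4867, 4174 and 4301 CPM in the 4 AD p38KO mice and 5564, 4215, 4198 and 4427 CPM in the 4 AD p38+/+ mice. They took 3894, 4156, 3413 and 3456 CPM in the WT p38KO mice and 4135, 2482, 4015 and 3886 CPM in the WT p38+/+ mice. The lowest of the 8 AD libraries (4174 CPM) thus stood just above the highest of the 8 WT libraries (4156 CPM). As a share of reads the means were 0.449% in AD p38KO, 0.460% in AD p38+/+, 0.373% in WT p38KO and 0.363% in WT p38+/+ mice. No p is given for these sums, since the list was chosen with results of these data known.

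The mean sums of both subunits were higher in AD mice. Large subunit genes summed to 2526 ± 199 CPM in AD p38KO and 2585 ± 339 CPM in AD p38+/+ mice, against 2086 ± 181 CPM in WT p38KO and 2022 ± 382 CPM in WT p38+/+ mice (SD, n = 4 each). Small subunit genes summed to 1967 ± 117 CPM in AD p38KO and 2016 ± 313 CPM in AD p38+/+ mice, against 1644 ± 178 CPM in WT p38KO and 1607 ± 390 CPM in WT p38+/+ mice. The large subunit sums of AD and WT mice did not overlap at either p38 genotype, and the small subunit sums overlapped at both. Large subunit reads per small subunit read averaged 1.28 in AD p38KO, 1.29 in AD p38+/+, 1.27 in WT p38KO and 1.28 in WT p38+/+ mice. The WT p38+/+ mean includes mouse 2 at 1.42. The other mice of that group had 1.22 to 1.24, below the 1.25 to 1.33 of AD p38+/+ mice.

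**Figure D1:**
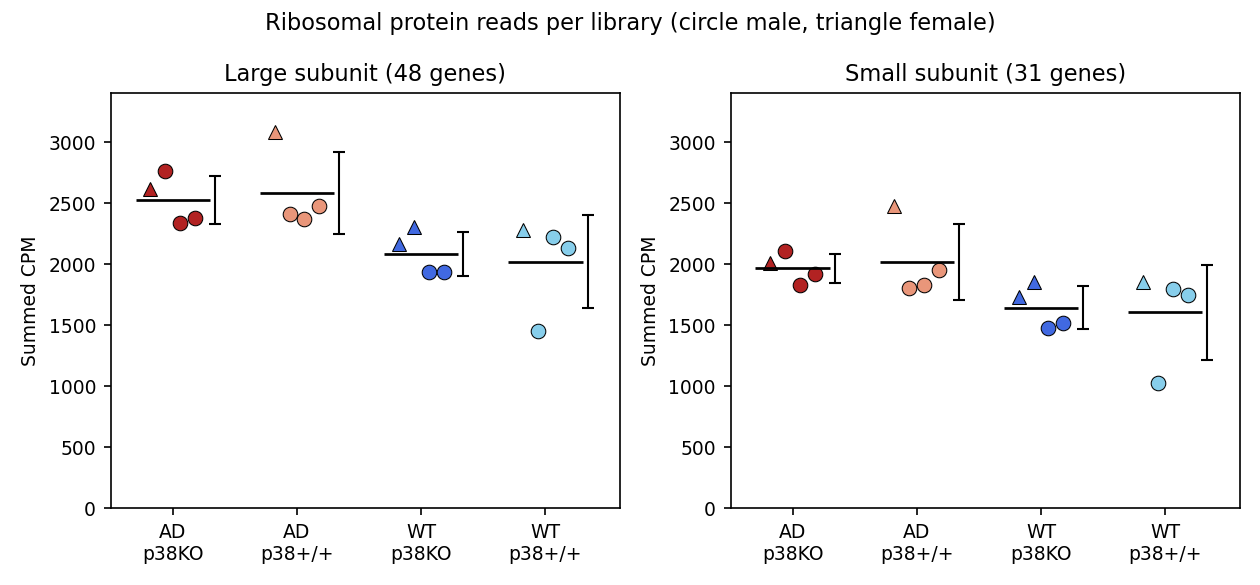
Summed CPM of the 48 large subunit genes (left) and the 31 small subunit genes (right) in each of the 16 mice, with the group mean (line) and SD (bar beside it, n = 4), circles for males and triangles for females. The large subunit sums of AD mice (2342 to 3088 CPM) stand above those of WT mice (1456 to 2305 CPM), with AD p38+/+ mouse 1 highest and WT p38+/+ mouse 2 lowest in both panels.

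2 libraries stood apart in the ribosomal protein genes. WT p38+/+ mouse 2 had the lowest value of all 16 mice for 57 of the 78 tested members, and AD p38+/+ mouse 1 had the highest for 52. The log2 ratio of the mean sums, AD p38+/+ over WT p38+/+, was 0.35 for the large and 0.33 for the small subunit. It was 0.23 and 0.16 without WT p38+/+ mouse 2, and 0.13 and 0.05 without AD p38+/+ mouse 1 as well. The same ratio for AD p38KO over WT p38KO, which involves neither library, was 0.28 for the large and 0.26 for the small subunit. It does hold AD p38KO mice 4 and 1, which stood furthest out over all genes tested. On the first principal component, the main direction of spread between libraries, mouse 4 had 108.8 and all others -10.5 to -1.49. On the second, mouse 1 had 75.5 and all others -27.5 to 16.4. In WT p38+/+ mouse 2 the 13 mitochondrial genome transcripts also summed lowest (5259 CPM, against 7390 to 11047 CPM elsewhere). Transcripts with a retained intron made up 11.9% of its ribosomal protein reads, where the other mice of its group had 7.53% to 8.75%. Their sum was 295 CPM, against 293 to 351 CPM in those mice, so the higher share goes with the lower total. AD p38+/+ mouse 1 had the highest sum of border macrophage markers (162 CPM, against 26.4 to 134 CPM elsewhere). It also had the highest sum of 12 markers of disease-associated microglia (6119 CPM, against 1925 to 4913 CPM elsewhere). What these values contribute was not tested.

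**Figure D2:**
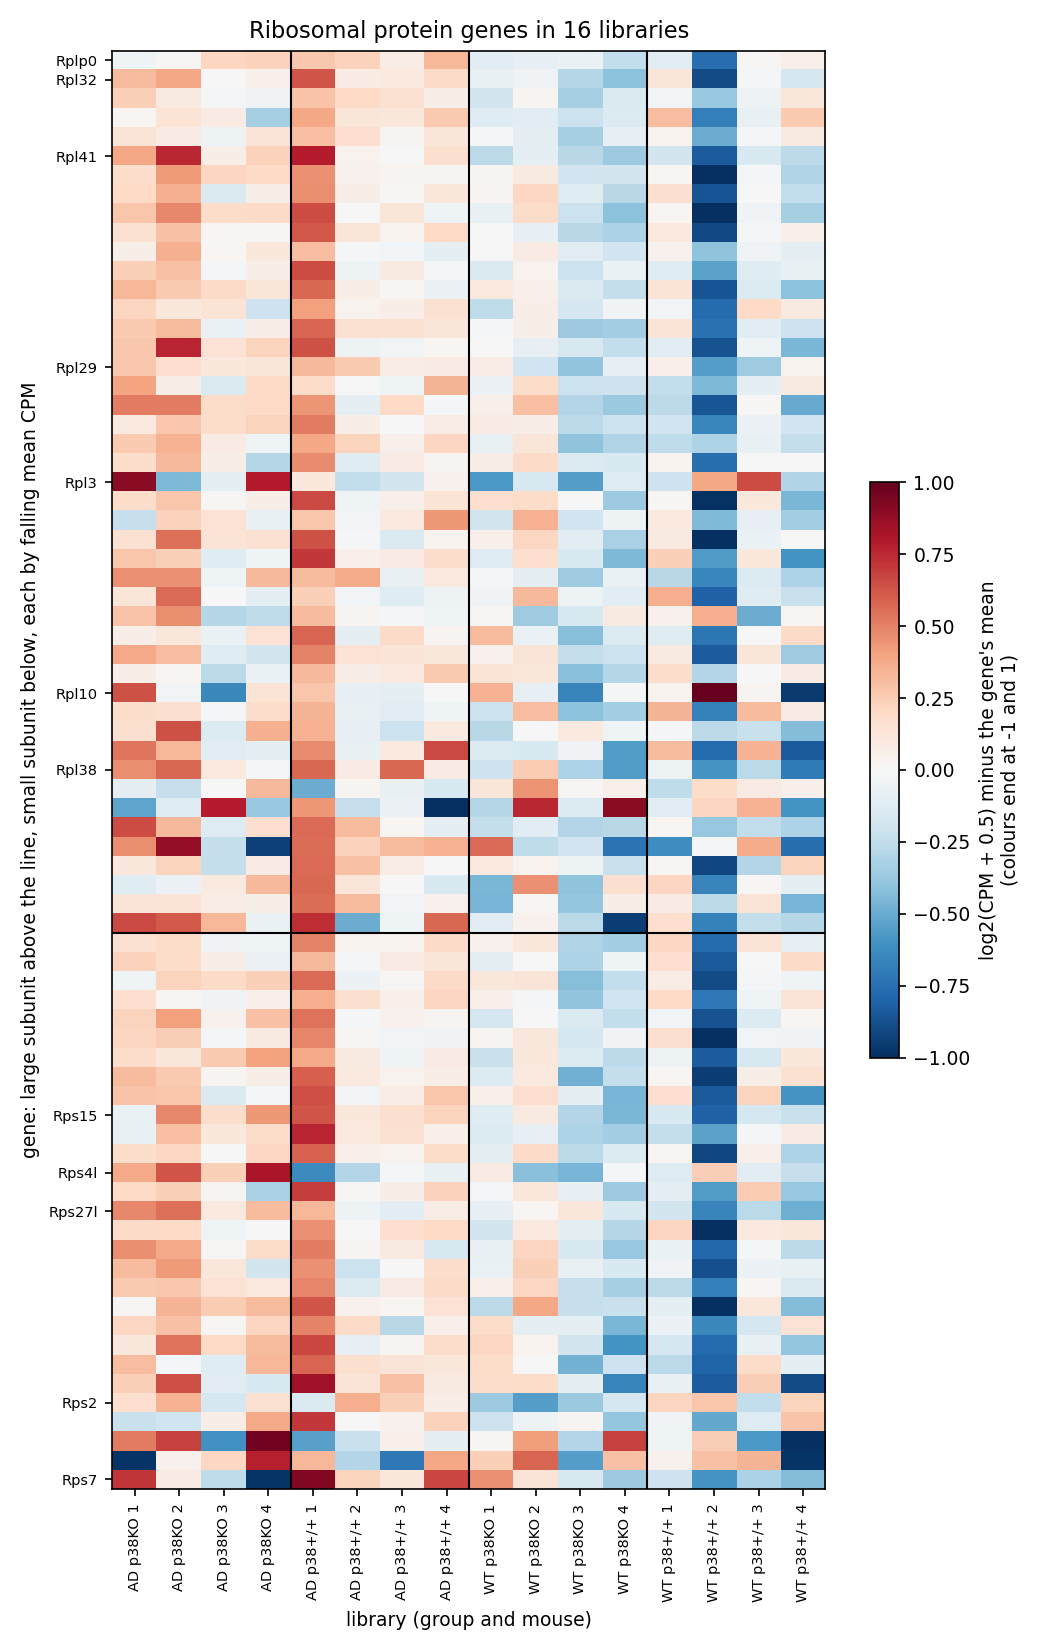
Levels of 75 tested ribosomal protein genes (rows, large subunit above the line, small below) in each of the 16 mice (columns), as log2(CPM + 0.5) minus the gene's mean over the mice, red above and blue below it, with some genes of the text labelled. Most rows are red in AD p38+/+ mouse 1 and dark blue in WT p38+/+ mouse 2, which hold 52 of the highest and 57 of the lowest values over all 78 tested genes.

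Females and males were compared only within a group. The female sum was 4626 CPM in AD p38KO, where males had 4174 to 4867 CPM, and 5564 CPM in AD p38+/+, where males had 4198 to 4427 CPM. Females had 3894 and 4156 CPM in WT p38KO, where males had 3413 and 3456 CPM, and 4135 CPM in WT p38+/+, where males had 2482 to 4015 CPM. The female libraries were thus above every male of their group in all groups but AD p38KO. With 1 or 2 females a group, no test was made.

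The first question was what the APP/PS1 genotype does where p38 is intact, so AD p38+/+ microglia were set against WT p38+/+ microglia. Of the 78 tested members 73 had a positive and 5 a negative log2 fold change, where 49.1% of all 13912 genes tested were positive. The median member was at 0.39 on the log2 scale, 0.40 for the large and 0.38 for the small subunit, and the median of all genes at -0.01. limma called no member at an adjusted p under 0.05 (0.359% of all genes were called) and the smallest adjusted p was 0.268. At an unadjusted p under 0.05, 35 members were higher and 0 lower, where 4.69% of all genes were higher. In 14 members every AD p38+/+ mouse was above every WT p38+/+ mouse, a pattern held by 3.36% of all genes. They included Rpl21, Rpl23, Rpl29, Rpl38, Rpl41, Rpl6, Rpl6l, Rplp0, Rplp1, Rps15, Rps27l and Rps7. Full separation of the groups fixes the exact permutation p at 0.0286, the smallest that 4 against 4 mice allow. That p therefore adds nothing to the count of 14. Without WT p38+/+ mouse 2 the members higher at an unadjusted p under 0.05 fell to 7, beside 4.71% of all genes, and the median to 0.24, and without AD p38+/+ mouse 1 as well they fell to 3, beside 3.30% of all genes, and the median to 0.14.

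The next comparison asked the same where p38 was deleted, with AD p38KO against WT p38KO microglia. Here 74 members were positive and 4 negative (43.8% of all genes were positive), with a median of 0.24 beside -0.04 for all genes. Again limma called 0 members, with a smallest adjusted p of 0.126 (0.323% of all genes were called). At an unadjusted p under 0.05, 12 members were higher and 0 lower, where 3.76% of all genes were higher. In 16 members, 2.60% being the share of all genes, the groups did not overlap, with AD p38KO higher. They included Rpl23, Rpl26, Rpl29, Rpl32, Rpl36, Rpl36a, Rpl37a, Rpl41, Rplp0, Rplp1, Rplp2, Rps19, Rps2, Rps24 and Rps4l. The count of 12 rests on the spread that all libraries share in the fit, and was 23 (4.38% of all genes) without WT p38+/+ mouse 2, which is in neither group, and 31 (4.51% of all genes) without AD p38+/+ mouse 1 as well. Without AD p38KO mice 1 and 4, the libraries with the fewest detected genes, it was 5, beside 2.94% of all genes.

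**Figure D3:**
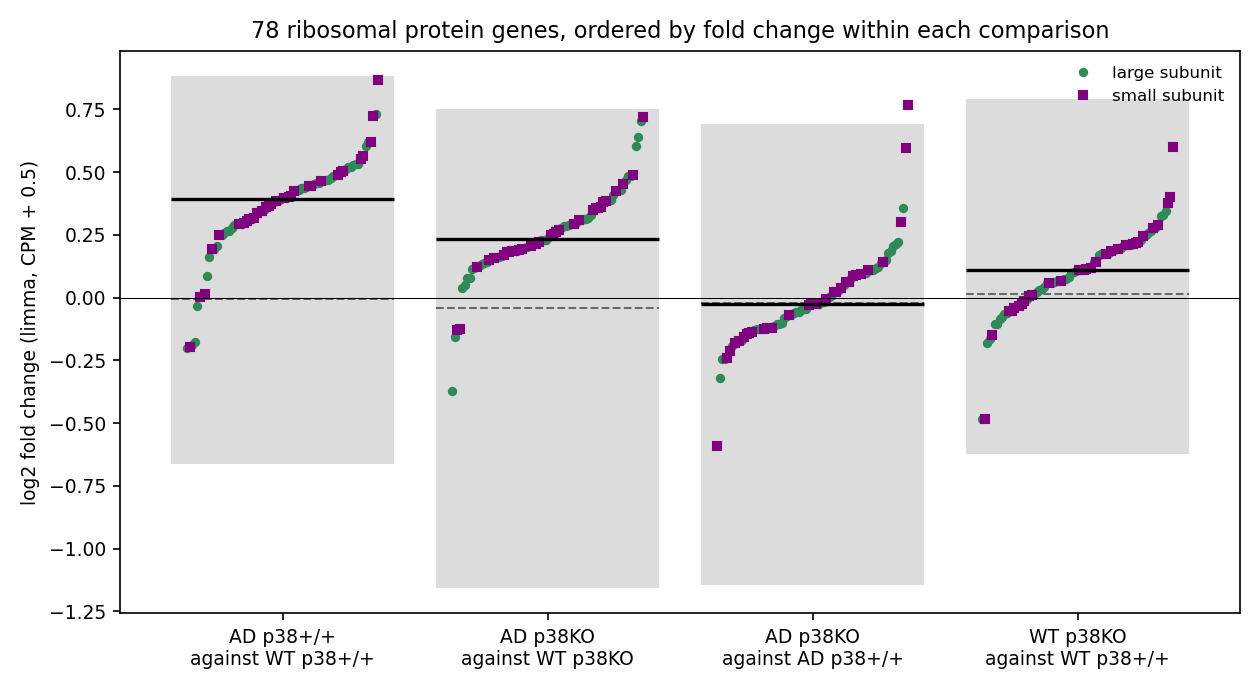
log2 fold changes (limma, on CPM + 0.5) of the 78 tested ribosomal protein genes in each pairwise comparison, ordered by size within it (green circles large, purple squares small subunit), with their median (solid line), the median of all genes (dashed line) and the central 95% of all genes (grey). In both AD against WT comparisons most points lie above 0 (73 and 74 of 78), while in the p38KO against p38+/+ comparisons 33 (AD) and 59 (WT) do.

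Averaged over the p38 genotypes, AD against WT microglia (8 mice each) gave 2 called members, both higher in AD, where 1.03% of all genes were called in either direction. These were Rpl41 and Rps15. At an unadjusted p under 0.05, 41 members were higher and 0 lower, where 6.25% of all genes were higher. In all 75 members were positive, where 44.3% of all genes were, with a median of 0.32 beside -0.03 for all genes. Without WT p38+/+ mouse 2 and AD p38+/+ mouse 1 the median was 0.19, and 25 members were higher at an unadjusted p under 0.05, beside 5.20% of all genes. By subunit 25 of 47 large and 16 of 31 small subunit genes were higher at an unadjusted p under 0.05.

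Rpl41 encodes the smallest of the ribosomal proteins, a short basic peptide of the large subunit (mm10 chr10, 128548114 to 128549306, minus strand). It had 138, 178, 109.7 and 124 CPM in AD p38KO mice and 182, 108.2, 105.6 and 118.1 CPM in AD p38+/+ mice. It had 87.9, 98.6, 86.9 and 82.0 CPM in WT p38KO mice and 92.8, 59.1, 94.8 and 88.0 CPM in WT p38+/+ mice. All 8 AD mice stood above all 8 WT mice, which held for 0.546% of all genes and among the members only for Rpl41 and Rpl29. The log2 fold change was 0.60 ± 0.13 (SE, 95% confidence interval 0.33 to 0.88, limma adjusted p = 0.0289). It was 0.60 with p38 intact (limma adjusted p = 0.336) and 0.61 with p38 deleted (limma adjusted p = 0.253). The exact permutation p was 0.0286 in each, a value that full separation fixes. Over 32 alternatives the adjusted p ranged between 0.0111 and 0.0743, and the call was lost, among others, without AD p38+/+ mouse 1, AD p38KO mouse 1 or 2, or WT p38KO mouse 1, 3 or 4.

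Rps15 encodes a protein of the head of the small subunit that is needed, in human cells, for the export of the small subunit from the nucleus (mm10 chr10, 80292453 to 80294115, plus strand). It had 51.9, 76.2, 61.7 and 73.6 CPM in AD p38KO mice and 84.7, 58.5, 61.1 and 63.7 CPM in AD p38+/+ mice. WT p38KO mice had 49.9, 57.9, 44.4 and 39.5 CPM and WT p38+/+ mice 48.9, 30.8, 48.1 and 46.7 CPM. The groups were apart with p38 intact and overlapped with p38 deleted, where 1 AD p38KO mouse lay below the highest WT p38KO mouse. The log2 fold change was 0.54 ± 0.13 (SE, 95% confidence interval 0.27 to 0.80, limma adjusted p = 0.0495), made up of 0.62 with p38 intact and 0.45 with p38 deleted. The call stood at the threshold. Over 32 alternatives the adjusted p ranged between 0.0308 and 0.152 and was under 0.05 in 12, and it held in 2 of the 16 fits that left out a single mouse.

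Rpl29, a large subunit protein also described at the cell surface as a heparin-binding protein, and Rpl38 were singled out after their values were seen. Rpl29 had 50.6, 47.3, 45.4 and 45.8 CPM in AD p38KO and 52.8, 50.5, 44.3 and 44.4 CPM in AD p38+/+ mice, against 44.2, 36.8, 31.8 and 39.8 CPM in WT p38KO and 43.6, 28.5, 32.7 and 43.1 CPM in WT p38+/+ mice. Its highest WT mouse (44.2 CPM) lay just below its lowest AD mouse (44.3 CPM), and its log2 fold change of 0.35 ± 0.11 (SE) was not called (limma adjusted p = 0.158). Rpl38, which in mouse embryos is needed for the translation of some Hox messenger RNAs, had the largest log2 fold change of the members, 0.61 ± 0.18 (SE), also not called (limma adjusted p = 0.158). Its level was low, 7.47 ± 1.54 CPM in AD p38KO and 7.75 ± 1.61 CPM in AD p38+/+ mice, against 5.24 ± 1.41 CPM in WT p38KO and 4.47 ± 1.03 CPM in WT p38+/+ mice (SD, n = 4 each). The lowest end of the list was held by Rpl12 (-0.27), Rpl5 (-0.17) and Rps27 (-0.06), with limma adjusted p of 0.754 or more.

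**Figure D4:**
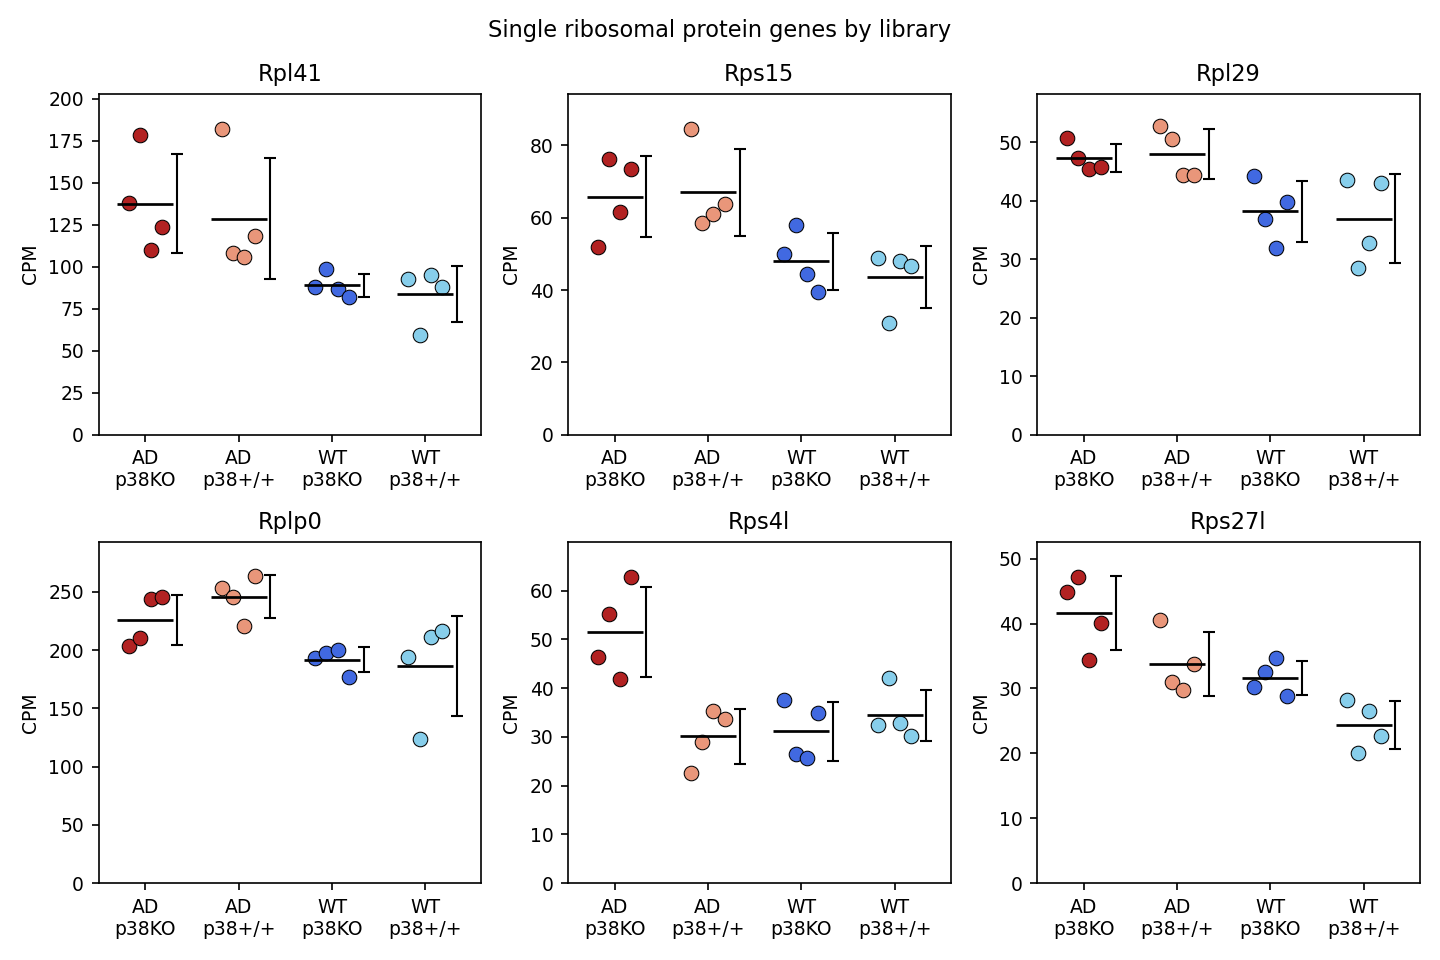
CPM of Rpl41, Rps15, Rpl29, Rplp0, Rps4l and Rps27l in each mouse, with the mean (line) and SD (bar, n = 4) of each group. Rpl41 and Rpl29 are higher in all 8 AD mice than in any WT mouse, and Rps4l has its highest values in the AD p38KO group (41.9 to 62.8 CPM, against 22.6 to 42.2 CPM in the other groups).

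Rplp0, Rplp1 and Rplp2 form the P-stalk, the arm of the large subunit that recruits elongation factors. Rplp0 had 204, 211, 243 and 245 CPM in AD p38KO and 253, 245, 220.5 and 264 CPM in AD p38+/+ mice, against 193, 198, 199.8 and 177 CPM in WT p38KO and 194, 124, 211 and 217 CPM in WT p38+/+ mice. Within each p38 genotype its AD mice stood above its WT mice, by a narrow margin. Averaged over p38, the log2 fold changes were 0.33 for Rplp0, 0.39 for Rplp1 and 0.38 for Rplp2, and none was called (limma adjusted p = 0.16, 0.202 and 0.244). Rplp1 averaged 117 ± 9.68 CPM in AD p38KO and 108.8 ± 17.3 CPM in AD p38+/+ mice, against 93.9 ± 9.42 CPM in WT p38KO and 80.9 ± 23.7 CPM in WT p38+/+ mice. Rplp2 averaged 56.0 ± 3.62 CPM in AD p38KO and 53.8 ± 11.8 CPM in AD p38+/+ mice, against 46.0 ± 5.11 CPM in WT p38KO and 39.4 ± 11.2 CPM in WT p38+/+ mice (SD, n = 4 each).

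No ribosomal protein gene was called with p38 deleted in AD microglia. AD p38KO against AD p38+/+ microglia gave 33 positive and 45 negative members (46.2% of all genes were positive), a median of -0.03 beside -0.02 for all genes, and 0 members called by limma (0.0503% of all genes were called). At an unadjusted p under 0.05 there was 1 member, Rps4l, beside 6.99% of all genes. The median standard error of a member's log2 fold change in these comparisons was 0.20, beside medians of 0.39 and 0.24 in the AD against WT comparisons, so a change of that size in a single gene may not pass. The log2 ratio of the mean sums was -0.03 for the large and -0.04 for the small subunit.

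Rps4l is annotated as a transcribed processed pseudogene, and its relative Rps4x encodes the working small subunit protein (Rps4l lies at mm10 chr6, 148354656 to 148355599, plus strand). It had 46.3, 55.1, 41.9 and 62.8 CPM in AD p38KO mice, against 22.6, 28.9, 35.2 and 33.8 CPM in AD p38+/+ mice. In WT p38KO mice it had 37.7, 26.5, 25.6 and 35.0 CPM, against 32.5, 42.2, 32.9 and 30.2 CPM in WT p38+/+ mice. The AD groups did not overlap, a pattern (KO higher) held by 1.32% of all genes, while the WT groups did. The log2 fold change was 0.77 ± 0.18 (SE, 95% confidence interval 0.38 to 1.15) in AD mice, with an unadjusted p of 0.000575 that did not pass over all genes (limma adjusted p = 0.25), and -0.15 ± 0.18 in WT mice. The difference between these, the interaction, was 0.92 ± 0.26 (SE), with an unadjusted limma p of 0.00243 and an adjusted p of 1. Only 1.66% of the 100-base windows of its main transcript occur in transcripts of other genes.

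In WT microglia, WT p38KO against WT p38+/+ gave 59 positive and 19 negative members (53.0% of all genes were positive), a median of 0.11 beside 0.02 for all genes, and 0 called by limma (0.00719% of all genes were called). This lean rested on WT p38+/+ mouse 2: without it 30 members were positive, the median was -0.04, and 0 members were higher and 3 lower at an unadjusted p under 0.05, where 2.93% of all genes were higher and 1.31% lower. With all mice, 1 member had an unadjusted p under 0.05, Rps27l, beside 3.53% of all genes. Rps27l, a paralog of Rps27 known in human cells as a target of p53 (mm10 chr9, 66946086 to 66949517, plus strand), had 30.3, 32.6, 34.8 and 28.9 CPM in WT p38KO mice, against 28.2, 20.1, 26.5 and 22.7 CPM in WT p38+/+ mice. Every WT p38KO mouse was above every WT p38+/+ mouse, as in 1.40% of all genes, with a log2 fold change of 0.38 ± 0.15 (SE, limma adjusted p = 1). It had 44.9, 47.2, 34.4 and 40.1 CPM in AD p38KO mice, against 40.6, 30.96, 29.7 and 33.8 CPM in AD p38+/+ mice, groups that overlapped (0.30 ± 0.15, limma adjusted p = 0.752).

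Averaged over APP/PS1 genotype, p38KO against p38+/+ gave 45 positive and 33 negative members, a median of 0.02 and 0 called (0.0791% of all genes were called). limma gave an unadjusted p under 0.05 for 3 members, Rps13, Rps27l and Rps4l, all higher in KO, beside 5.90% of all genes. The interaction, which asks whether the p38KO effect differed between AD and WT mice, gave 0 called members (0% of all genes were called) and 2 with an unadjusted limma p under 0.05, Rps4l and Rpl3, beside 3.92% of all genes. Negative interaction values were found in 66 of 78 members, where 57.4% of all genes were negative, with a median of -0.13 beside -0.06 for all genes. Without WT p38+/+ mouse 2 and AD p38+/+ mouse 1 the median was 0.12 and 61 members were positive, so the direction turned with these libraries.

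Rpl3 and Rps7 show how the low or shared members scattered. Rpl3, a core protein near the site of peptide bond formation, had 56.8, 21.9, 28.4 and 52.7 CPM in AD p38KO mice, against 32.5, 25.4, 26.5 and 31.2 CPM in AD p38+/+ mice, and 20.2, 27.2, 20.4 and 27.6 CPM in WT p38KO mice, against 26.1, 39.5, 47.8 and 24.4 CPM in WT p38+/+ mice. Rps7 had 3.80, 2.28, 1.70 and 0.828 CPM in AD p38KO mice, against 4.48, 2.57, 2.34 and 3.67 CPM in AD p38+/+ mice, and 3.10, 2.37, 1.85 and 1.54 CPM in WT p38KO mice, against 1.78, 1.24, 1.61 and 1.44 CPM in WT p38+/+ mice. Mice of the AD p38KO group spread most, in both genes. The largest SDs within groups were those of Rps27, Rpl12, Rpl9, Rpl10 and Rps13, with means of at most 10.1 CPM.

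The low values of several of these genes stand beside high values of near-identical copies. 53 members had at least 1 named copy in the gene table, in 165 rows, and 23 members were below their highest copy. Rpl10, which joins the large subunit late in its assembly, averaged 10.1 CPM over the 16 mice and Rpl10-ps3 232 CPM, and all 645 coding bases are identical. Rps27 averaged 3.20 CPM and Rps27rt 124 CPM, with 255 of 255 coding bases identical. Rps13 averaged 3.23 CPM and Rps13-ps1 76.2 CPM, with 454 of 456 bases identical. Rpl9 averaged 4.32 CPM and Rpl9-ps6 91.3 CPM (578 of 579 bases), and Rpl3 31.8 CPM and Rpl3-ps1 221 CPM (1207 of 1209 aligned bases). The next lines show, from GENCODE M21, coding bases 1 to 60 of a pair with the same coding sequence and coding bases 370 to 429 of a pair with a few differences, which are in capitals.
Rpl10 (chromosome X): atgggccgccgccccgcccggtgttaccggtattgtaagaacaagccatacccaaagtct
Rpl10-ps3 (chromosome 9): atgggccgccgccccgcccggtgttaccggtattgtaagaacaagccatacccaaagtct
Rps13 (chromosome 7): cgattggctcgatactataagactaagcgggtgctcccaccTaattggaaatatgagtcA
Rps13-ps1 (chromosome 8): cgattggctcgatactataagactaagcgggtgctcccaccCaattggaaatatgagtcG
A read that falls in such a stretch can be given to either row, so the split between a member and its copy is uncertain. Of the 100-base windows of a member's main transcript, a median of 36.8% also occurred in a transcript of another gene, 59.1% in the 18 members under 10 CPM and 32.5% in the 61 others.

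**Figure D5:**
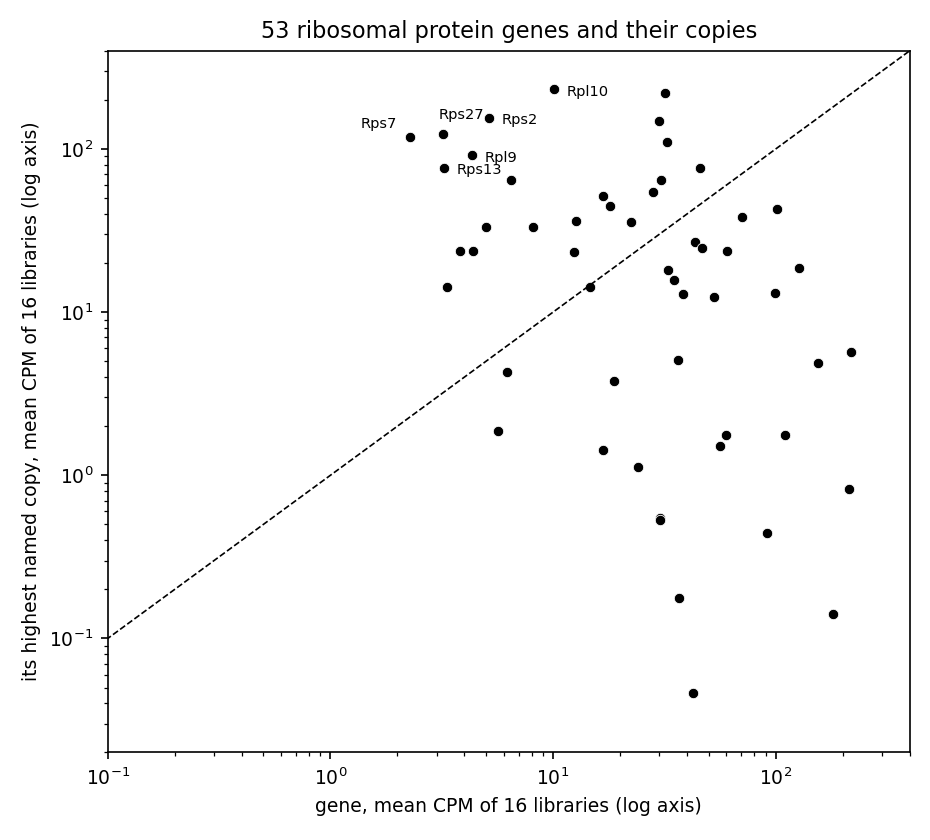
Mean CPM over the 16 mice of the 53 ribosomal protein genes that have a named copy (horizontal, log axis) and of the highest of each gene's copies (vertical, log axis), with the line of equal values. The 23 genes above the line, among them Rpl10 (10.1 CPM, copy 232 CPM) and Rps13 (3.23 CPM, copy 76.2 CPM), have less signal than their copy.

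The copies followed the genes. Together they took 2603 ± 193 CPM in AD p38KO and 2727 ± 396 CPM in AD p38+/+ mice, against 2182 ± 230 CPM in WT p38KO and 2127 ± 516 CPM in WT p38+/+ mice (SD, n = 4 each). With each member's copies added to it, an alternative chosen after the data were seen, 77 of 78 members were positive in AD against WT averaged over p38 and 54 were higher at an unadjusted p under 0.05, beside 6.15% of all genes. Called were then Rpl41, Rps15 and Rps2 with its copies, where 1.04% of all genes were called. The Rps2 sum had a log2 fold change of 0.42 (limma adjusted p = 0.0202). Of its mean of 173.9 CPM over all mice, Rps2 itself gave 5.18 CPM and the copy Rps2-ps10 155 CPM. This copy averaged 176 CPM in AD p38KO and 178 CPM in AD p38+/+ mice, against 131 CPM in WT p38KO and 136 CPM in WT p38+/+ mice. Most of the called sum was thus assigned to the row of a copy. However, 58.5% of the windows of the main Rps2 transcript also occur in transcripts of other genes. These values therefore cannot tell reads of the copy from Rps2 reads placed on it. Rps2 alone had 5.78, 6.58, 4.45 and 5.68 CPM in AD p38KO mice and 4.55, 6.68, 6.06 and 5.32 CPM in AD p38+/+ mice, against 3.83, 3.30, 3.80 and 4.43 CPM in WT p38KO mice and 5.97, 6.24, 4.19 and 5.99 CPM in WT p38+/+ mice.

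Levels of different genes were compared per kilobase of transcript. Among the highest over the 16 mice were Rpl32 with 337, Rps9 with 293, Rps14 with 260.2 and Rpl41 with 239 CPM per kilobase. Lowest of the 78 were Rps13 with 2.14, Rps7 with 2.92 and Rpl12 with 3.10 CPM per kilobase, of which Rps13 and Rps7 have copies far above them. Genes whose proteins accumulate in matched amounts thus had table values far apart.

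By transcript, most reads were given to protein-coding forms, 86.4% in AD p38KO, 87.6% in AD p38+/+, 86.4% in WT p38KO and 86.0% in WT p38+/+ mice. Forms with a retained intron had 8.08% in AD p38KO, 7.84% in AD p38+/+, 8.45% in WT p38KO and 9.04% in WT p38+/+ mice. The 12 transcripts annotated as targets of nonsense-mediated decay, which cells degrade, summed to 25.1 ± 4.13 CPM in AD p38KO against 16.6 ± 5.35 CPM in AD p38+/+ mice, and to 16.4 ± 2.73 CPM in WT p38KO against 13.7 ± 3.93 CPM in WT p38+/+ mice (SD, n = 4 each). These are sums over few reads in transcripts that overlap coding forms, and were not tested.

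Members with and without a run of C and T at the annotated start differed little in AD against WT averaged over p38. The split follows annotated starts, so it may not separate members with and without the motif. The 20 with a run had a median log2 fold change of 0.35 and the 36 tested members without it 0.30.

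Other genes of translation were counted in the same fit, AD against WT averaged over p38. The 7 ribosomal protein genes whose symbols the rule leaves out (among them Rpsa, Rps3a1, Fau and Rpl22l1) had a median of 0.28, and 5 were higher at an unadjusted p under 0.05, a level that 6.25% of all genes passed upward in this comparison. Fau, which encodes Rps30 fused to a ubiquitin-like protein, had 16.5 ± 1.90 CPM in AD p38KO and 18.2 ± 2.69 CPM in AD p38+/+ mice, against 11.9 ± 1.81 CPM in WT p38KO and 11.5 ± 2.45 CPM in WT p38+/+ mice (0.55, limma adjusted p = 0.0665). Of 20 genes of elongation factors and other TOP messenger RNAs 7 were higher, with a median of 0.19. Eef1a1, which brings aminoacyl-tRNA to the ribosome, averaged 1380 CPM in AD p38KO and 1587 CPM in AD p38+/+ mice, against 1189.9 CPM in WT p38KO and 1248 CPM in WT p38+/+ mice (0.30, limma adjusted p = 0.258). Of 36 genes of ribosome biogenesis 7 were higher, with a median of 0.08. The median was 0.11 for 49 genes of the mitochondrial large ribosomal subunit, of which 3 were higher, and 0.06 for 29 of the mitochondrial small subunit, of which 1 was higher, shares no larger than that of all genes. It was 0.03 for 13 RNA polymerase I genes and regulators, with 1 higher and 1 lower. The 19 genes of mTOR and translation control had a median of -0.01, with 0 higher and 2 lower. limma called none of the genes in these lists at an adjusted p under 0.05.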

How the data were processed

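The authors sorted microglia, prepared libraries with NEBNext Ultra II, aligned paired reads with STAR to mm10 (Ensembl release 100) and quantified genes and transcripts in Partek Flow 10.0.22.0828. The deposited tables hold CPM, per the file headers normalised counts, with 1e-04 added by the authors to each value, which was taken off. Reads shared between transcripts were split into fractions, so whole counts were not recovered and no count model was run.

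The filter kept the 13912 of 20267 genes that reached 1 CPM in 4 or more of the 16 libraries and set 6355 aside. limma 3.58.1 in R 4.3.3 (trended) was fitted on log2(CPM + 0.5), which understates changes of low genes, with 4 group means in a single fit of 16 libraries. 7 comparisons were made, each adjusted by Benjamini-Hochberg over all genes, and called at 0.05. Single genes were also tested by a two-sided exact permutation test (scipy 1.17.1). p-values measure the spread between these mice. The members, lists and rule were chosen with earlier results of these data known. Named were called members, the 3 smallest p in each direction of each pairwise comparison and the interaction, the highest and lowest levels of each subunit, the most variable members, paralogs and the P-stalk. Copies were rows with a member's symbol plus -ps or rt. Lengths and coding sequence came from GENCODE M21 (GRCm38) and start sites from RefSeq. Other scalings, pseudocounts, filters, covariates and left-out libraries were tried, and the fit was tested on simulated data. Some genes are not reported here, among rows that fit the symbol rule too.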

Additional observations from a re-analysis of the deposited data

Results flagged for a closer look

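In groups of 4 mice, a mouse was marked where its gap to the nearest other mouse took up more of the group's whole range than Dixon's critical value for 4 samples. This was checked in 136 groups, for 31 members and the sums, and 11 were marked. Chance marks about 1 in 20 independent groups. Here the members were named partly for their spread or small p, and most marks fall on the same libraries. The rate of 1 in 20 is therefore no yardstick for these marks. WT p38+/+ mouse 2 was lowest of its group in Rps15 (30.8 CPM, the others 46.7 to 48.9), Rps14 (82.4 CPM, the others 149 to 162) and the small subunit sum (1026 CPM, the others 1752 to 1857). Its ratio of large to small subunit reads was highest of its group, 1.42, where the others had 1.22 to 1.24. AD p38+/+ mouse 1 was highest of its group in Rpl41 (182 CPM, the others 105.6 to 118.1), Rpl32 (273 CPM, the others 187 to 201), Rplp1 (135 CPM, the others 99.7 to 101), Rplp2 (71.3 CPM, the others 45.8 to 49.6) and the large subunit sum (3088 CPM, the others 2368 to 2474). The remaining marks were Rps2 in WT p38+/+ mouse 3 (4.19 CPM, the others 5.97 to 6.24) and Rplp1 in AD p38KO mouse 2 (131 CPM, the others 110.7 to 113). No cause was tested.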

How the results depend on the processing

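Counts of called members were 0 in the 4 pairwise comparisons, in KO against p38+/+ and in the interaction under every alternative run. In AD against WT averaged over p38, 2 members were called, and 1 with a pseudocount of 0.1 CPM, no filter, a term for library labels ending in S0, or the replicate block, 7 with sex as a covariate (Rpl13, Rpl19, Rpl32, Rpl41, Rpl6, Rps15 and Rps27l, with 1.45% of all genes called), 0 to 3 when each mouse was left out in turn, and 0 without AD p38KO mice 1 and 4 or without WT p38+/+ mouse 2 and AD p38+/+ mouse 1. Without these last 2 mice, a choice made after the data were seen, the median of AD p38+/+ against WT p38+/+ was 0.14, that of the interaction 0.12, and the log2 ratio of the sums 0.13 (large) and 0.049 (small). Signs turned for some genes, in no case of a called value. In AD p38KO against WT p38KO, Rps7 was 0.059 with quantile scaling, 0.029 with sex and 0.36 with copies added. When each mouse was left out in turn, Rps7 was -0.40 to 0.17, positive without WT p38KO mouse 1 or AD p38KO mouse 4. Rpl12 in the same comparison was 0.017 without AD p38KO mice 1 and 4. In AD p38+/+ against WT p38+/+, Rps4l was 0.031 without WT p38+/+ mouse 2 and AD p38+/+ mouse 1. With copies added, Rpl5 (0.11) and Rpl3 (0.31) turned in AD p38+/+ against WT p38+/+. So did Rps13 in AD p38KO against AD p38+/+ (-0.10) and Rpl3 in the interaction (-0.072). The cause was not tested. Deviations of same-numbered mice of different groups had a median r of -0.01 over 24 pairs, 2 above 0.1. Between KO and p38+/+ mice numbered 1 to 4, r was 0.18, -0.04, 0.08 and 0.13 in WT. In AD it was 0.07, 0.06, 0.03 and 0.07. Differently numbered KO and p38+/+ mice reached at most 0.06 in WT and 0.04 in AD. Over all 72 differently numbered pairs of different groups the median r was -0.002 and the highest 0.21, with 4 above 0.1. Whether the numbers pair the mice is thus not settled, and the main fit has no pairing. The scalings tried moved the median of all genes by less than 0.1 on the log2 scale. Depth limits the members under about 1 CPM, and near-identical copies limit those with shared sequence.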
